A study of Astyanax mexicanus with 12 samples.

Results

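The genes described here encode kinesins, kinetochore and centromere proteins, spindle proteins, and the cohesin and condensin complexes. They were chosen by symbol alone, as entries whose names begin with kif, cenp, ndc80, nuf2, spc24, spc25, knl1, tpx2, incenp, birc5, ckap5, prc1, tacc3, numa1, smc1 to smc4, rad21, stag or ncap. Of 14627 genes with enough reads to be tested, 68 carried such a symbol, and 8 further entries fell below the filter with at most 17 reads in any library. No entry under the symbols cenpa, cenpf, knl1, incenp, numa1, smc1b or stag3 was analysed here.

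Kinesins are motors that walk along microtubules or take them apart, and a subset of them builds the spindle, moves chromosomes and completes cytokinesis, while the others carry vesicles, organelles and ciliary cargo. Kinetochores tie centromeres to spindle microtubules, cohesin holds sister chromatids together until anaphase, and condensin compacts them. A fish oocyte assembles only its meiotic spindles itself, but it stores maternal mRNA and protein for the rapid cleavage divisions of the embryo, which start before the embryo transcribes its own genes.

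Astyanax mexicanus is a teleost with river-dwelling surface fish and blind cavefish. Right-side ovaries were taken from females at about 660 days post fertilization, and their total RNA was sequenced. The 4 groups of 3 libraries were starved Tinaja cavefish, control Tinaja cavefish, starved surface fish and control surface fish, with all fish labelled as wild type and the controls as untreated. The duration of starvation was not given in the sources used here, and nothing in the labels says whether 2 libraries of a group shared a tank or clutch, so p-values measure only the spread between these samples. Levels are given as CPM, each gene's share of a library's gene reads, scaled between libraries but not by gene length, so they compare samples and not genes.

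The libraries held 5949155 to 10198881 reads on genes, and 3 reads corresponded to 0.323 to 0.492 CPM. The labelled tissue was checked against markers of ovarian cells. Summed over 15 oocyte markers, the level was 6011 to 6653 CPM in starved Tinaja cavefish, 5746 to 7456 CPM in control Tinaja cavefish, 7844 to 8870.2 CPM in starved surface fish and 5769 to 6579 CPM in control surface fish. The sum of 9 granulosa cell markers was 21.5 to 39.8 CPM in starved Tinaja cavefish, 24.9 to 41.6 CPM in control Tinaja cavefish, 5.62 to 7.88 CPM in starved surface fish and 15.9 to 17.4 CPM in control surface fish. Of the defining granulosa genes, foxl2a had at most 1 read and the 2 runx1 entries at most 5 reads in any library. In whole ovaries, fewer cells of a type and less RNA per cell cannot be told apart.

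Starved against control surface fish: 4 of the 68 genes rose and none fell, where 3.19% of all genes tested were called in either direction, 1.74% of them higher. The genes that rose were the spindle motor kif11, the spindle assembly factor tpx2, the spindle protein tacc3 and the cohesin subunit rad21a, by 1.18- to 1.25-fold. The called share of the 68 genes was 5.88%. At an unadjusted p under 0.05 there were 21 of the 68, against 3296 of all 14627 genes tested. The median log2 fold change was 0.06 for the 68 genes, against -0.01 over all genes tested. Starved and control libraries did not overlap for 14 of the 68 genes that were higher and 9 that were lower in starved surface fish, where 13.7% and 14.8% of all genes tested were separate in those directions. A gene was called where edgeR's quasi-likelihood test gave a Benjamini-Hochberg adjusted p under 0.05 over all genes.

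The gene kif11 (ENSAMXG00000011281) encodes the plus-end motor that slides antiparallel spindle microtubules apart and keeps the spindle bipolar. It measured 1486, 1429.6 and 1523 CPM in starved surface fish and 1220.0, 1215 and 1226 CPM in control surface fish. All starved libraries stood above all controls, and the log2 fold change was 0.28 ± 0.0621 (SE; adjusted p = 0.0401). In starved Tinaja cavefish it measured 1236, 1223 and 1211 CPM, against 1144, 1228 and 1333 CPM in control Tinaja cavefish, and these groups overlapped.

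The product of tpx2 (ENSAMXG00000005456) activates Aurora A kinase and nucleates microtubules around chromosomes. Its levels were 944, 941 and 1009 CPM in starved surface fish and 796, 747 and 819 CPM in control surface fish. The groups did not overlap, with a log2 fold change of 0.29 ± 0.0621 (SE; adjusted p = 0.0343). Starved Tinaja cavefish had 794, 792 and 853 CPM and control Tinaja cavefish 759, 809 and 828 CPM, which overlapped.

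The product of tacc3 (ENSAMXG00000021416) stabilises spindle microtubules together with the microtubule polymerase encoded by ckap5. It reached 1350.0, 1291 and 1383 CPM in starved surface fish and 1109.7, 1015 and 1106 CPM in control surface fish. The lowest starved library exceeded the highest control, and the log2 fold change was 0.32 ± 0.0748 (SE; adjusted p = 0.0470). Its partner ckap5 (ENSAMXG00000009499) went the other way without passing the threshold, at 301, 273 and 302 CPM in starved surface fish and 337, 368 and 367 CPM in control surface fish (log2 fold change -0.29 ± 0.0741, SE; adjusted p = 0.0527).

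The gene rad21a (ENSAMXG00000016960) encodes the kleisin that closes the cohesin ring and is cut by separase at anaphase. It measured 453, 437 and 469 CPM in starved surface fish and 394, 370.3 and 386 CPM in control surface fish. Again the groups did not overlap, with a log2 fold change of 0.24 ± 0.0528 (SE; adjusted p = 0.0381). Starved Tinaja cavefish had 408, 423 and 407 CPM and control Tinaja cavefish 389, 409 and 410.5 CPM, which overlapped.

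**Figure D1:**
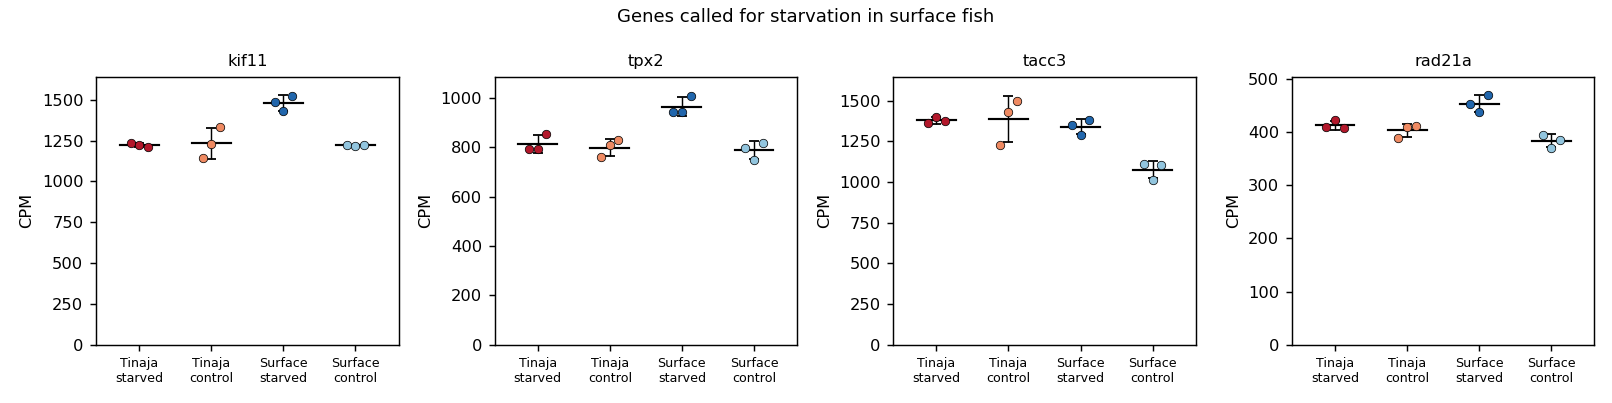
CPM of kif11, tpx2, tacc3 and rad21a in each group. Points are libraries, horizontal lines are means and bars are SD over 3 libraries, on axes that start at 0. In each panel the starved surface fish lie above the control surface fish, while starved and control Tinaja cavefish overlap.

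The calls in starved surface fish lay near the threshold. Many were lost when a single library was left out, also Tinaja libraries outside the comparison, while the fold changes moved little. Log2 fold changes ran from 0.26 to 0.30 for kif11, 0.26 to 0.32 for tpx2, 0.28 to 0.35 for tacc3 and 0.22 to 0.27 for rad21a over 19 alternative settings, with adjusted p of at most 0.136, 0.136, 0.163 and 0.142 in that order. None of the 68 genes was called without any 1 of the starved surface libraries 1, 2 or 3, without surface control library 3 or without Tinaja control library 2. Without surface control library 2 the single call was CENPVL3, and without surface control library 1 the calls were 2 genes higher and 2 lower. Without Tinaja starved library 1 or 3 only tpx2 was called, without Tinaja starved library 2 only rad21a and tpx2, and without Tinaja control library 3 there were 7 calls. Fitting the surface fish alone called 0 of the 68 genes. The share of all genes called in each of these fits is not given here, so the counts do not set these genes apart.

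Other markers moved in the same comparison. Of 15 oocyte markers, 5 were called higher in starved surface fish with a median log2 fold change of 0.31, and of 13 proliferation genes 4 were called higher with a median of 0.24. Over all genes tested 1.74% were called higher and 1.45% lower. Of 9 granulosa markers 1, the gonadotropin receptor lhcgr, was called lower, and the median was -1.61. The 9 together summed to 5.62 to 7.88 CPM in starved surface fish, so their fold changes rest on few reads. The part of these shifts in the result for the spindle genes was not tested.

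Outside the mitotic kinesins, the spindle microtubule genes and cohesin, no role group held a call in starved against control surface fish. Cohesin held no call beyond rad21a. The 8 condensin genes had log2 fold changes of -0.09 to 0.21, the largest that of the core subunit smc2 (ENSAMXG00000008142), with 619.5, 640.5 and 689 CPM in starved surface fish and 559, 545 and 578 CPM in control surface fish. Those smc2 groups did not overlap, but the adjusted p was 0.0599. The cohesin subunit STAG2 (ENSAMXG00000005653), which binds the kleisin, measured 29.6, 34.3 and 37.6 CPM in starved surface fish and 56.2, 53.2 and 41.8 CPM in control surface fish. These groups did not overlap either (log2 fold change -0.57 ± 0.154, SE; adjusted p = 0.0592). The 19 kinesins of transport and other roles ran from -1.76 to 0.16, with a median of -0.15, and the 5 outer kinetochore genes from -0.18 to 0.29.

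Starved against control Tinaja cavefish: edgeR called 0 of the 68 genes, where 0.0205% of all genes tested were called, 0.00684% higher and 0.0137% lower. Libraries of the 2 groups did not overlap for 3 higher and 3 lower genes of the 68, against 4.69% and 3.93% of all genes. At an unadjusted p under 0.05 there were 4 of the 68, against 578 of all 14627 genes tested. DESeq2 called 0 of the 68. The median log2 fold change was -0.00 for the 68 genes and -0.00 for all genes. Log2 fold changes were -0.25 to 0.22 over the 11 mitotic kinesins, -0.09 to -0.02 over the 5 outer kinetochore genes and -0.03 to 0.07 over the 8 condensin genes. For 50 of the 68 genes the approximate 95% interval lay within a 1.5-fold change in either direction, the same number as in surface fish.

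The 2 starvation responses were set against each other directly, as the response of Tinaja cavefish minus that of surface fish. None of the 68 genes was called by edgeR, where 0.0684% of all genes tested were called, 0.0205% with the higher and 0.0479% with the lower response in Tinaja cavefish. An unadjusted p under 0.05 was found for 16 of the 68, against 2264 of all 14627 genes tested. The differences were -0.29 for kif11 (adjusted p = 0.193), -0.27 for tpx2 (adjusted p = 0.207), -0.32 for tacc3 (adjusted p = 0.207) and -0.21 for rad21a (adjusted p = 0.241). DESeq2 called kif11, tacc3 and tpx2, each with the lower response in Tinaja cavefish, and the share of all genes it called is not given here. A response of these genes confined to surface fish was therefore not shown by the edgeR test.

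**Figure D2:**
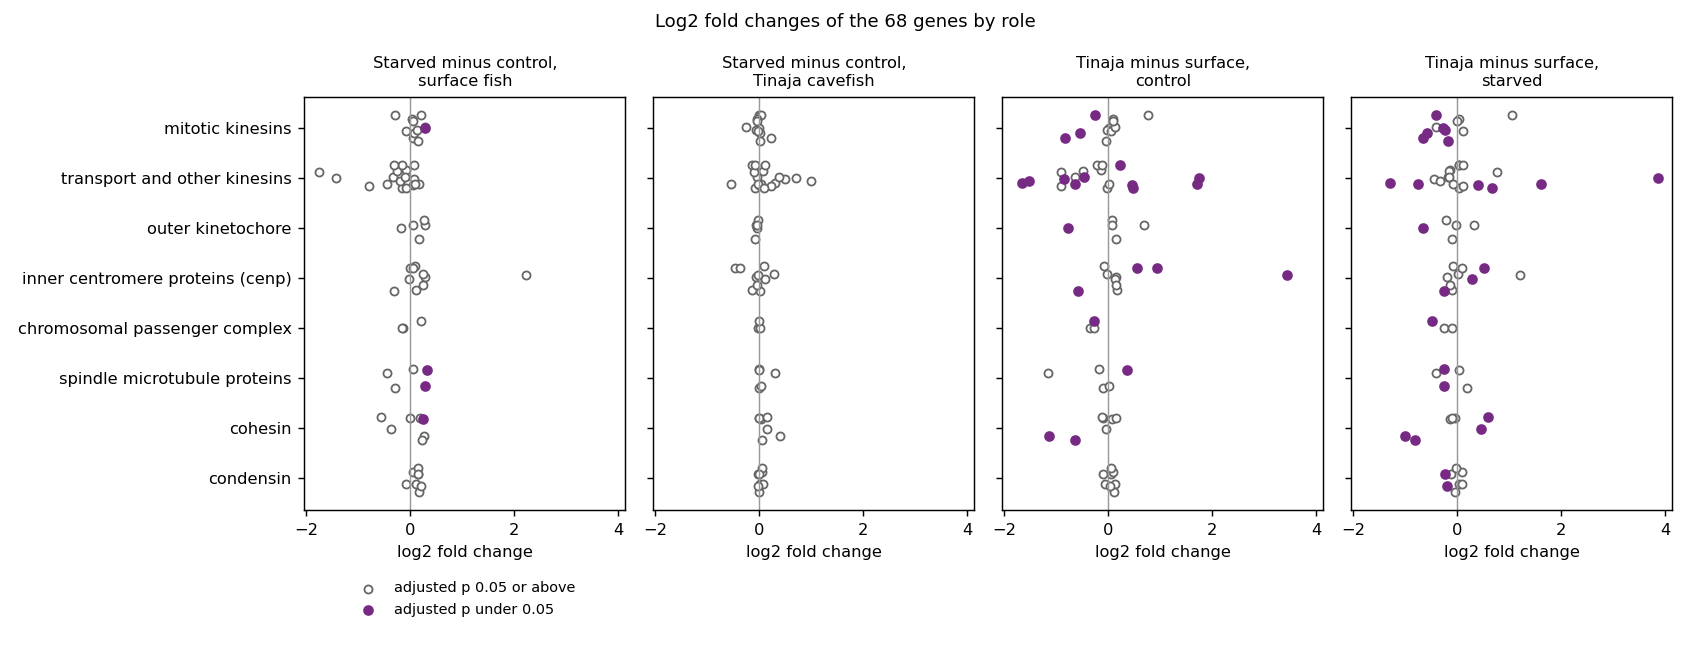
Log2 fold change of each of the 68 genes, 1 point per gene, by role (rows) and comparison (panels). Filled points have an adjusted p under 0.05 in edgeR. The 2 starvation panels hold 4 and 0 filled points, and the 2 panels of Tinaja cavefish minus surface fish hold 22 and 25.

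Tinaja cavefish against surface fish, both control: 22 of the 68 genes were called, 9 higher and 13 lower in Tinaja cavefish. That share, 32.4%, equals the 32.4% called over all genes tested, of which 16% were higher and 16.4% lower. In starved fish 25 of the 68 genes were called, 8 higher and 17 lower, or 36.8%, against 40.3% over all genes (20.3% higher and 20% lower). Control libraries did not overlap for 15 higher and 17 lower genes of the 68, against 23.2% and 23.8% of all genes, and starved libraries for 11 higher and 19 lower genes, against 26.6% and 26% of all genes. The share of calls among these genes was near that of the transcriptome in both feeding states. Whether sequence or annotation differences between the populations affect the reads counted for a gene was not tested. Median log2 fold changes were -0.03 in control fish and -0.10 in starved fish, against 0.00 and 0.01 over all genes. The 2 population comparisons use separate libraries, but each shares a surface group and a Tinaja group with the starvation comparisons, so the values are given side by side without an overlap test between those.

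All 22 genes called in control fish had the same sign in starved fish, as did 94.5% of all genes called in control fish. Of the 25 called in starved fish 20 had the same sign in control fish (80%), against 91.8% over all genes. The other 5 were kif11, tpx2, smc2, STAG2 and stag2a, with control values between -0.12 and 0.03. In both states 5 genes were called higher and 10 lower in Tinaja cavefish, or 46.9% of those called in either, near the 44.9% over all genes. Of the 32 genes called in either state, 0 were called for the difference between the starvation responses. The summed level of the 68 genes was 14514 to 14651 CPM in starved Tinaja cavefish and 15979 to 16694 CPM in starved surface fish. In control Tinaja cavefish it was 14067 to 14987 CPM, overlapping the 14782 to 15707 CPM of control surface fish. These sums are weighted towards abundant genes. The mean log2 level over the 68 genes, centred on the mean of all libraries, overlapped between the starved populations. It was 0.03, -0.04 and 0.01 in starved Tinaja cavefish and -0.02, 0.04 and 0.05 in starved surface fish.

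Markers of other cells also differed between the populations. The sum of 7 smooth muscle markers was 58.4 to 99.6 CPM in starved Tinaja cavefish and 8.97 to 35.4 CPM in starved surface fish, and 68.6 to 91.8 CPM in control Tinaja cavefish and 24.3 to 31.6 CPM in control surface fish. Among starved fish 20.3% of all genes tested were called higher in Tinaja cavefish and 20% lower. The markers called higher were 6 of 9 granulosa, 2 of 3 theca, 4 of 9 stroma, 3 of 9 macrophage, 3 of 7 smooth muscle and 1 of 4 vessel markers. The 1 blood marker tested, slc4a1a, was called lower, as was 1 of 2 ciliary markers, ift88. Among the same fish 9 of 15 oocyte markers were called lower and 1 higher. Of the 13 proliferation genes 6 were called lower and 1 higher in starved Tinaja cavefish, with a median log2 fold change of -0.24, and their sum was 10546.5 to 10861 CPM in starved Tinaja cavefish and 11908 to 12727 CPM in starved surface fish. Among control fish 16% of all genes tested were called higher in Tinaja cavefish and 16.4% lower. The markers called higher were 2 of 9 granulosa, 1 of 3 theca, 1 of 9 stroma, 2 of 9 macrophage, 1 of 7 smooth muscle and 0 of 4 vessel markers. The oocyte list then had 2 calls higher and 1 lower, and the proliferation list 2 higher and 2 lower, with sums of 9498 to 12121 CPM in control Tinaja cavefish and 9094 to 10195 CPM in control surface fish. The part of these markers in the differences described next was not tested.

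Among the 11 mitotic kinesins every call was lower in Tinaja cavefish, with 3 calls in control and 6 in starved fish. These are 27.3% of the group in control fish, where 32.4% of all genes were called in either direction and 16.4% lower. In starved fish they are 54.5%, where 40.3% of all genes were called in either direction and 20% lower. The gene kif20a (ENSAMXG00000008478), whose motor brings the chromosomal passenger complex to the midzone for cytokinesis, measured 118, 126 and 113 CPM in starved Tinaja cavefish and 140.4, 209 and 189 CPM in starved surface fish. Control levels were 112, 116 and 123 CPM in Tinaja cavefish and 158, 183 and 172 CPM in surface fish. No library of either Tinaja group reached the lowest surface library, and the log2 fold changes were -0.59 ± 0.119 in starved fish (adjusted p = 0.00220) and -0.55 ± 0.120 in control fish (adjusted p = 0.00446), with SE.

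KIF15 (ENSAMXG00000021392), a motor that can hold the spindle bipolar when the kif11 product is inhibited in human cells, measured 182, 211 and 181 CPM in starved Tinaja cavefish and 293, 269.9 and 345 CPM in starved surface fish. In control fish it measured 204, 169.7 and 119 CPM in Tinaja cavefish and 285, 308 and 284 CPM in surface fish. The populations did not overlap in either state, at log2 fold changes of -0.66 (adjusted p = 0.00745) in starved and -0.83 (adjusted p = 0.00259) in control fish. The gene kif11 itself was lower in starved Tinaja cavefish than in starved surface fish by the levels given above (log2 fold change -0.27, adjusted p = 0.00444), while between control groups it was at 0.02.

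The chromosome-aligning motor gene kif18a (ENSAMXG00000006057) measured 259, 227 and 237 CPM in starved Tinaja cavefish and 311, 307 and 340.1 CPM in starved surface fish (log2 fold change -0.41, adjusted p = 0.00196). Its control levels were 207, 245 and 252 CPM in Tinaja cavefish and 268, 285 and 284 CPM in surface fish (log2 fold change -0.25, adjusted p = 0.0329). The control groups did not overlap, but that call was lost without surface control library 2 or 3 or Tinaja control library 1, with adjusted p of 0.0890, 0.0850 and 0.118. Upper-quartile scaling factors or a fit of only the groups compared lost it as well. The microtubule depolymerase gene kif2c (ENSAMXG00000009340) was at 264, 272 and 264 CPM in starved Tinaja cavefish and 299.6, 290.0 and 315 CPM in starved surface fish (log2 fold change -0.18, adjusted p = 0.0270). This small difference was no longer called without surface starved library 1 or 3 or Tinaja starved library 1 or 3, at log2 values of -0.19 to -0.15. Nor was it called with upper-quartile scaling factors or with only the groups compared fitted.

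One mitotic kinesin with a role in cytokinesis, kif23 (ENSAMXG00000000541), part of centralspindlin, was level across all groups. Its means were 338 ± 13.9 CPM in starved Tinaja cavefish, 349 ± 17.0 CPM in control Tinaja cavefish, 332 ± 16.2 CPM in starved surface fish and 324 ± 12.3 CPM in control surface fish (SD, n = 3 each), and no comparison called it.

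At the outer kinetochore cenpe (ENSAMXG00000037702) was the single call of 5 genes. It encodes the kinetochore motor that carries chromosomes to the metaphase plate and had the smallest adjusted p of the 68 genes between control groups. It measured 966, 949 and 872 CPM in starved Tinaja cavefish and 1475, 1431 and 1465 CPM in starved surface fish. Control fish had 930.0, 986 and 974 CPM in Tinaja cavefish and 1357, 1782 and 1815 CPM in surface fish. No Tinaja library reached the lowest surface library in either state, at log2 fold changes of -0.65 ± 0.0948 in starved fish (adjusted p = 0.000263) and -0.78 ± 0.0950 in control fish (adjusted p = 8.5e-05), with SE.

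The ndc80 and nuf2 genes encode the microtubule-binding arm of the kinetochore and were not called. The gene ndc80 (ENSAMXG00000014557) measured 128, 114 and 126 CPM in starved Tinaja cavefish and 139, 139.6 and 118 CPM in starved surface fish, and 130.2, 139 and 123 CPM in control Tinaja cavefish and 120.4, 119 and 116 CPM in control surface fish. The values of nuf2 spread widely among surface fish and are given at the end.

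**Figure D3:**
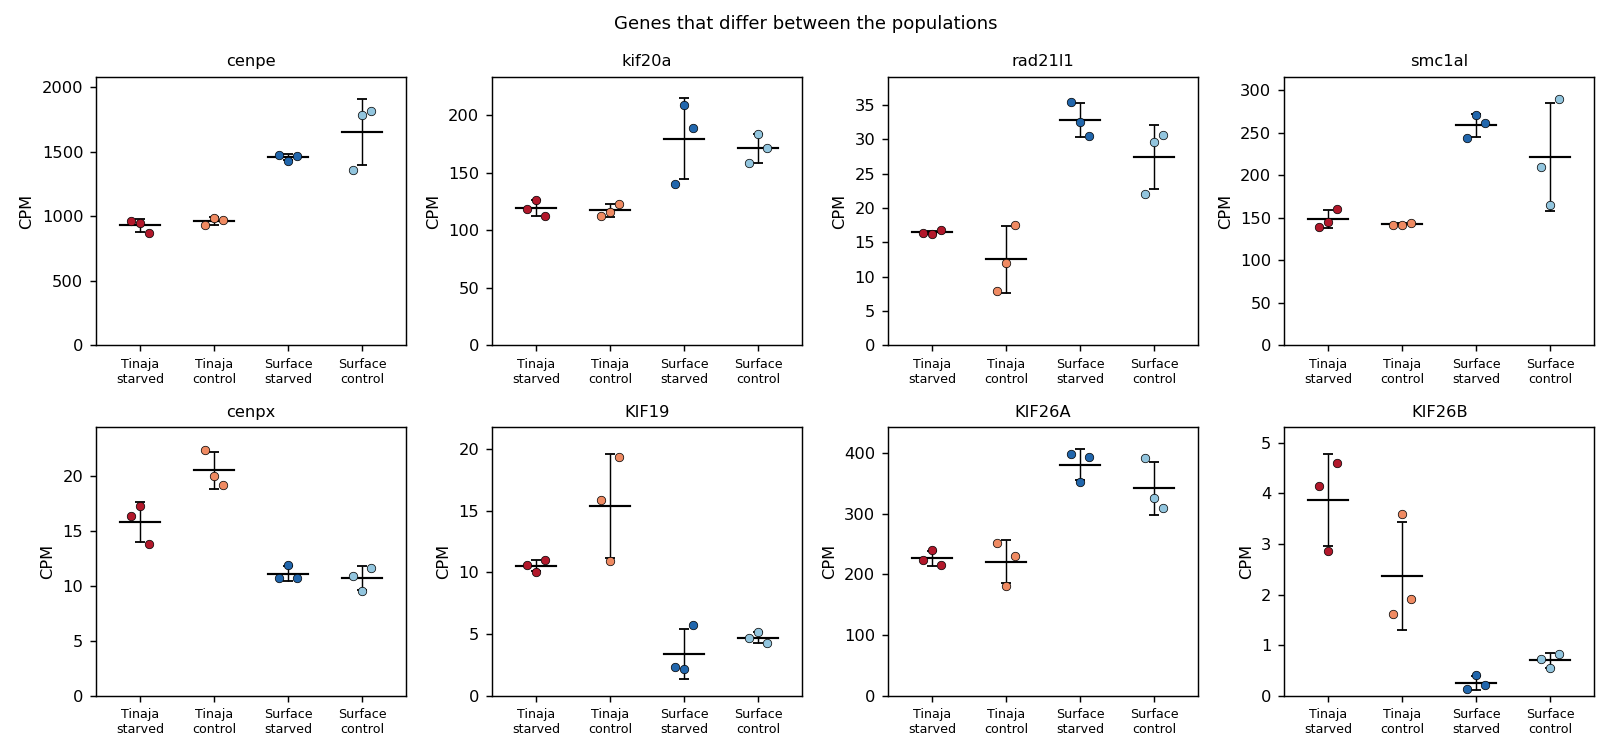
CPM of 8 genes with population differences, drawn per library with the mean and SD of 3 libraries on axes that start at 0. Tinaja cavefish lie below surface fish for cenpe, kif20a, rad21l1, smc1al and KIF26A, and above them for cenpx, KIF19 and KIF26B.

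The cenp genes outside the outer kinetochore, labelled inner centromere proteins in the figure by role, differed in both directions. The histone-fold protein encoded by cenpx (ENSAMXG00000034305) belongs to the constitutive centromere network and also to a DNA repair complex. It measured 16.3, 17.2 and 13.8 CPM in starved Tinaja cavefish and 10.7, 11.9 and 10.7 CPM in starved surface fish, and 22.4, 19.9 and 19.2 CPM in control Tinaja cavefish and 10.9, 9.50 and 11.7 CPM in control surface fish. The Tinaja libraries were the higher ones in both states (log2 fold changes 0.51 in starved fish, adjusted p = 0.0168, and 0.94 in control fish, adjusted p = 0.000538). The starved call missed the threshold without surface starved library 1 or 3 or Tinaja starved library 1 or 2, with adjusted p of 0.0507 to 0.0610.

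CENPI (ENSAMXG00000021502), another subunit of that network, was lower in Tinaja cavefish. Its levels were 79.4, 71.5 and 82.7 CPM in starved Tinaja cavefish and 101, 87.6 and 90.8 CPM in starved surface fish. In control fish they were 78.3, 83.8 and 69.4 CPM in Tinaja cavefish and 106, 126 and 115 CPM in surface fish. The control difference was the clearer, at a log2 fold change of -0.58 (adjusted p = 0.000676). The starved difference of -0.26 (adjusted p = 0.0478) was lost in 10 of 19 alternatives, at -0.30 to -0.20, 7 of which left out surface control library 3, surface starved library 1 or 3, Tinaja control library 1 or Tinaja starved library 1, 2 or 3.

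The network genes cenpp and cenpl were each called in 1 state. The level of cenpp (ENSAMXG00000029167) was 29.7, 29.8 and 35.4 CPM in control Tinaja cavefish and 25.0, 21.4 and 17.8 CPM in control surface fish, without overlap (log2 fold change 0.56, adjusted p = 0.00969), and the starved groups overlapped at 0.10. The level of cenpl (ENSAMXG00000009457) was 54.3, 52.8 and 62.2 CPM in starved Tinaja cavefish and 46.7, 44.7 and 48.0 CPM in starved surface fish (log2 fold change 0.28, adjusted p = 0.0280). That call was lost without surface starved library 1 or 2 or Tinaja starved library 3, at log2 values of 0.20 to 0.28. It was also lost without the filter on low counts.

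CENPVL3 (ENSAMXG00000019608) shares the name stem but not membership of that network, and its counts were low. Control Tinaja cavefish had 48, 56 and 68 reads and control surface fish 0, 16 and 1 reads. Starved Tinaja cavefish had 65, 59 and 55 reads, against 24, 37 and 24 reads in starved surface fish. Only the control groups were called (log2 fold change 3.44, adjusted p = 0.00591), and the size of that value rested on single libraries, at 6.68 without surface control library 2 and 2.83 without surface control library 1.

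The 3 survivin-type genes of the chromosomal passenger complex, which corrects faulty attachments of chromosomes, were lower in Tinaja cavefish in sign, with birc5b called in both states. The level of birc5b (ENSAMXG00000031614) was 139, 149 and 161 CPM in starved Tinaja cavefish and 197, 201 and 228 CPM in starved surface fish, without overlap (log2 fold change -0.48, adjusted p = 0.00221). Control Tinaja cavefish had 132, 144 and 173 CPM and control surface fish 188, 171 and 186 CPM, which overlapped (log2 fold change -0.28, adjusted p = 0.0442). The control call was lost without any 1 of the surface control libraries, surface starved library 2, Tinaja control library 1 or 2 or Tinaja starved library 2, at -0.32 to -0.20. It was also lost with RLE or upper-quartile scaling factors and when only the groups compared were fitted. The related gene birc5a (ENSAMXG00000042974) averaged 50.4 ± 3.56 CPM in starved Tinaja cavefish, 49.9 ± 5.64 CPM in control Tinaja cavefish, 54.0 ± 2.45 CPM in starved surface fish and 60.1 ± 8.46 CPM in control surface fish (SD, n = 3 each) and was not called. Multimapping reads were entered apart from the genes, so any reads shared between related genes may be missing from both. Sequence shared by birc5a and birc5b was not examined, so the values of each keep this uncertainty.

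Of the 5 spindle microtubule genes, tacc3 was higher in control Tinaja cavefish, at 1227, 1430.5 and 1499 CPM, against 1109.7, 1015 and 1106 CPM in control surface fish (log2 fold change 0.36, adjusted p = 0.00304). Starved Tinaja cavefish had 1361, 1402 and 1378 CPM, which overlapped the starved surface fish (log2 fold change 0.04). In starved fish tpx2 was lower in Tinaja cavefish (log2 fold change -0.25, adjusted p = 0.00779), with the levels given above. The gene prc1a (ENSAMXG00000013114), whose product bundles midzone microtubules, measured 164, 161 and 197 CPM in starved Tinaja cavefish and 204, 201 and 214 CPM in starved surface fish (log2 fold change -0.25, adjusted p = 0.0409). Its call was lost without any 1 of the starved surface libraries, Tinaja control library 2 or Tinaja starved library 1 or 2, at -0.27 to -0.20. The prc1a call was also lost with upper-quartile scaling factors and when only the groups compared were fitted. Its copy prc1b had 1 to 16 reads in each library and no call, and ckap5 had none in the population comparisons, with means of 330.1 ± 15.4 CPM in starved Tinaja cavefish and 292 ± 16.4 CPM in starved surface fish, and 331 ± 29.2 CPM in control Tinaja cavefish and 358 ± 17.5 CPM in control surface fish (SD, n = 3 each).

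Cohesin gave calls in both directions. The gene rad21l1 (ENSAMXG00000012993) encodes a kleisin that is specific to meiotic cells in mouse. It measured 16.3, 16.2 and 16.7 CPM in starved Tinaja cavefish and 35.4, 32.5 and 30.5 CPM in starved surface fish. In control fish it measured 7.94, 12.1 and 17.6 CPM in Tinaja cavefish and 22.1, 29.6 and 30.6 CPM in surface fish. All Tinaja libraries lay below all surface libraries, with means of 16.4 ± 0.263 CPM in starved Tinaja cavefish and 32.8 ± 2.49 CPM in starved surface fish (SD, n = 3 each; adjusted p = 0.00390) and a log2 fold change of -1.13 ± 0.226 in control fish (SE; adjusted p = 0.00256).

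The SMC1-type gene smc1al (ENSAMXG00000020424), named for an arm of the cohesin ring, measured 139, 145 and 160.0 CPM in starved Tinaja cavefish and 244, 271 and 262 CPM in starved surface fish. Control fish had 142, 142 and 143 CPM in Tinaja cavefish and 209.7, 165 and 289.8 CPM in surface fish. Groups were separate in both states although the surface controls spread widely (log2 fold changes -0.81 in starved fish, adjusted p = 0.00194, and -0.64 in control fish, adjusted p = 0.00906). The control call was lost when only the 2 groups compared were fitted (adjusted p = 0.0520). An entry named smc1a had 6 reads in all libraries together.

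STAG2 and stag2a (ENSAMXG00000007550), 2 entries named for 1 cohesin subunit, were higher in starved Tinaja than in starved surface fish. STAG2 had 59.7, 47.9 and 46.8 CPM in starved Tinaja cavefish against the 29.6, 34.3 and 37.6 CPM of starved surface fish (log2 fold change 0.60, adjusted p = 0.00869). The entry stag2a had 67.9, 49.4 and 63.8 CPM in starved Tinaja cavefish and 39.8, 46.6 and 45.0 CPM in starved surface fish (log2 fold change 0.46, adjusted p = 0.0230). The stag2a call was lost without surface starved library 1 or 3 or Tinaja starved library 1 or 3, at 0.36 to 0.48, and between control groups the 2 genes were at -0.12 and -0.05. STAG1, smc3 and rad21a were not called between populations in either state, with log2 fold changes between -0.13 and 0.14.

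Condensin had 0 of 8 genes called between the control populations by edgeR, where 32.4% of all genes tested were called. At an unadjusted p under 0.05 it also had 0 of 8, against 6326 of all 14627 genes tested. Its log2 fold changes ran from -0.10 to 0.13. In starved fish the 2 core ATPase genes smc2 and smc4 were lower in Tinaja cavefish. The level of smc2 was 555, 591 and 546 CPM in starved Tinaja cavefish, against the starved surface values given above (log2 fold change -0.20, adjusted p = 0.0142). The level of smc4 (ENSAMXG00000013950) was 595, 591 and 672 CPM in starved Tinaja cavefish and 709, 743 and 743 CPM in starved surface fish (log2 fold change -0.24, adjusted p = 0.0166). Neither pair of groups overlapped, but the smc2 call was lost without Tinaja starved library 3 (-0.18, adjusted p = 0.0543) and the smc4 call without Tinaja starved library 1 or 2 (-0.22 and -0.21, adjusted p = 0.0632 and 0.0605). The condensin I subunit genes ncapd2, ncapg and ncaph were not called. Means were 842 ± 18.2 CPM in starved Tinaja cavefish and 823 ± 42.0 CPM in starved surface fish for ncapd2, 392 ± 20.3 CPM in starved Tinaja cavefish and 428 ± 27.2 CPM in starved surface fish for ncapg, and 406 ± 29.1 CPM in starved Tinaja cavefish and 415 ± 28.6 CPM in starved surface fish for ncaph (SD, n = 3 each).

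Of the 19 kinesins of transport and other roles, 10 were called between control groups (5 higher and 5 lower in Tinaja cavefish) and 6 between starved groups (4 higher and 2 lower). These shares were 52.6% in control fish, against 32.4% of all genes, and 31.6% in starved fish, against 40.3%. KIF26B (ENSAMXG00000032120) encodes an unconventional kinesin that lacks motor ATPase activity and works in cell adhesion and polarity. It had 32, 23 and 28 reads in starved Tinaja cavefish and 1, 3 and 2 reads in starved surface fish, and 11, 25 and 13 reads in control Tinaja cavefish and 6, 4 and 6 reads in control surface fish. All Tinaja libraries held more reads than all surface libraries, with fitted log2 fold changes of 3.86 ± 0.539 (SE; adjusted p = 0.000195) in starved fish and 1.74 ± 0.482 (SE; adjusted p = 0.0157) in control fish. The first is imprecise at so few reads, and the second was lost without surface control library 2 (1.60, adjusted p = 0.0589) or Tinaja control library 2 (1.31, adjusted p = 0.0811).

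Its relative KIF26A (ENSAMXG00000008141) differed the other way. It measured 223, 241 and 215 CPM in starved Tinaja cavefish and 398, 353 and 393 CPM in starved surface fish, and 251, 181 and 229.8 CPM in control Tinaja cavefish and 391, 325 and 309 CPM in control surface fish. The populations were separate in both states, at log2 fold changes of -0.75 in starved fish (adjusted p = 0.000408) and -0.63 in control fish (adjusted p = 0.00157).

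KIF19 (ENSAMXG00000011728), a kinesin that limits the length of motile cilia in mouse, measured 10.6, 10.0 and 11.0 CPM in starved Tinaja cavefish and 2.31, 2.14 and 5.71 CPM in starved surface fish. Control fish had 15.9, 10.9 and 19.3 CPM in Tinaja cavefish and 4.70, 5.16 and 4.25 CPM in surface fish. Tinaja libraries were the higher ones throughout (log2 fold changes 1.61 in starved fish, adjusted p = 0.00303, and 1.70 in control fish, adjusted p = 0.00232), and the starved value was 2.23 without surface starved library 3. The sum of 2 ciliary markers tested was 28.1 to 31.9 CPM in starved Tinaja cavefish and 32.7 to 69.4 CPM in starved surface fish. Of these 2, ift88 was called lower in starved Tinaja cavefish (log2 fold change -1.62), and the other, at 0.22, was not called. The part of these markers in the KIF19 difference was not tested.

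KIF21A (ENSAMXG00000017720), a kinesin that restrains microtubule growth at the cell cortex, was also higher in Tinaja cavefish. It measured 140.2, 136 and 121 CPM in starved Tinaja cavefish and 102, 93.4 and 106 CPM in starved surface fish, and 125, 138 and 137 CPM in control Tinaja cavefish and 113, 97.4 and 80.2 CPM in control surface fish. The ranges did not meet in either state (log2 fold changes 0.40 in starved fish, adjusted p = 0.0120, and 0.46 in control fish, adjusted p = 0.00722).

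Pairs of entries that share 1 symbol did not always differ alike. KIF5B is the heavy chain of conventional kinesin, a general cargo motor. Its entry ENSAMXG00000012765 measured 196, 165 and 197 CPM in starved Tinaja cavefish and 120.2, 128 and 104 CPM in starved surface fish, and 172, 178 and 170.1 CPM in control Tinaja cavefish and 128, 117 and 128 CPM in control surface fish. That entry was higher in every Tinaja library, at log2 fold changes of 0.67 (adjusted p = 0.000129) in starved and 0.48 (adjusted p = 0.00138) in control fish. The other entry, ENSAMXG00000005869, averaged 296 ± 23.3 CPM in starved Tinaja cavefish and 316 ± 19.6 CPM in starved surface fish, and 301 ± 15.1 CPM in control Tinaja cavefish and 297 ± 16.0 CPM in control surface fish (SD, n = 3 each). It was not called in either state.

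KIF13B carries vesicles and polarity proteins. Its entry ENSAMXG00000018566 measured 7.77, 9.06 and 11.0 CPM in starved Tinaja cavefish and 26.5, 17.4 and 24.2 CPM in starved surface fish, and 9.41, 5.88 and 7.03 CPM in control Tinaja cavefish and 22.3, 26.5 and 21.7 CPM in control surface fish. Every Tinaja library was below every surface library, at log2 fold changes of -1.30 (adjusted p = 0.000600) in starved and -1.66 (adjusted p = 0.000148) in control fish. The second entry, ENSAMXG00000018489, was at 161, 144 and 187 CPM in control Tinaja cavefish and 207, 243 and 230.0 CPM in control surface fish, without overlap (log2 fold change -0.47, adjusted p = 0.0201), and at -0.18 between starved groups. The control call was lost without surface control library 2 or 3 or Tinaja control library 1 or 2, at -0.46 to -0.39, with adjusted p of 0.0525 to 0.0754. Whether the difference differs between entries was not tested, and reads that match both entries may be missing from both.

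**Figure D4:**
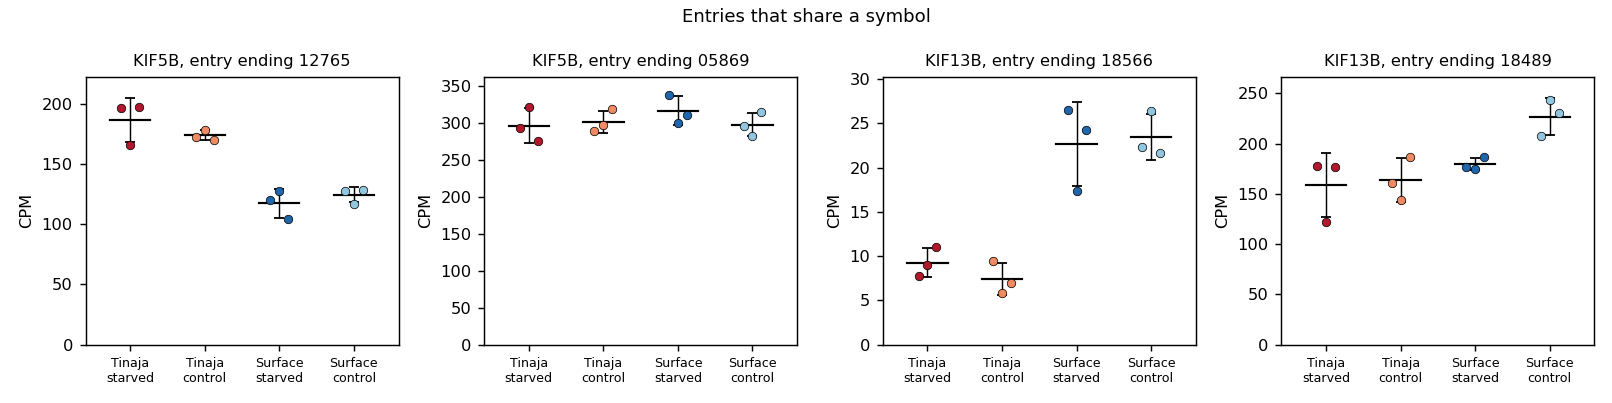
CPM of the 2 KIF5B and the 2 KIF13B entries per library, with mean and SD of 3 libraries, on axes that start at 0. The KIF5B entry in the first panel, ENSAMXG00000012765, lies higher in Tinaja cavefish while the other KIF5B entry overlaps between populations, and the KIF13B entry in the third panel, ENSAMXG00000018566, lies below 12 CPM in all Tinaja libraries and above 17 CPM in all surface libraries.

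KIF1C (ENSAMXG00000002713), a motor of vesicle transport, measured 16.9, 7.32 and 9.08 CPM in control Tinaja cavefish and 27.2, 32.2 and 36.7 CPM in control surface fish. These groups did not overlap (log2 fold change -1.53, adjusted p = 0.00422). Starved Tinaja cavefish had 31.1, 21.7 and 13.6 CPM and starved surface fish 24.3, 30.9 and 28.3 CPM, which overlapped (log2 fold change -0.33). A second KIF1C entry, ENSAMXG00000006258, was not called, at 29.1, 12.1 and 14.3 CPM in control Tinaja cavefish and 32.1, 46.0 and 25.5 CPM in control surface fish, which overlapped (log2 fold change -0.90, adjusted p = 0.0606), and at 0.12 between starved groups.

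Some genes of this set spread widely within a group, in either population. The cytokinesis motor gene kif14 (ENSAMXG00000017563), singled out after its values were seen, measured 178, 174 and 174 CPM in starved Tinaja cavefish and 111, 113 and 30.9 CPM in starved surface fish. Control fish had 174, 189.5 and 165 CPM in Tinaja cavefish and 29.9, 114 and 167 CPM in surface fish. One library in each surface group was far below the others, and no comparison called the gene. The values of nuf2 (ENSAMXG00000005348) were 213, 211 and 189 CPM in starved Tinaja cavefish and 85.4, 208 and 197 CPM in starved surface fish, and 218, 219 and 205 CPM in control Tinaja cavefish and 83.4, 153 and 165 CPM in control surface fish. In the control groups the low library was the same one for both genes, and in the starved groups it was a different one.

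Spread of this size was also counted over all genes. A highest library of at least 2 times the lowest, in any group, was found in 5 of the 59 genes of the set with a mean of at least 10 CPM in every group (8.47%), and in 597 of 8979 genes overall (6.65%). The 5 genes were kif14 and nuf2 in surface groups, and rad21l1 and both KIF1C entries in Tinaja groups, with highest-to-lowest ratios of 3.65 and 5.60 for kif14, 2.44 for nuf2, 2.21 for rad21l1, and 2.28, 2.31 and 2.42 for the KIF1C entries. The median within-group coefficient of variation was 7.04% for the 68 genes and 12.3% for all genes tested, levels not being matched.

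**Figure D5:**
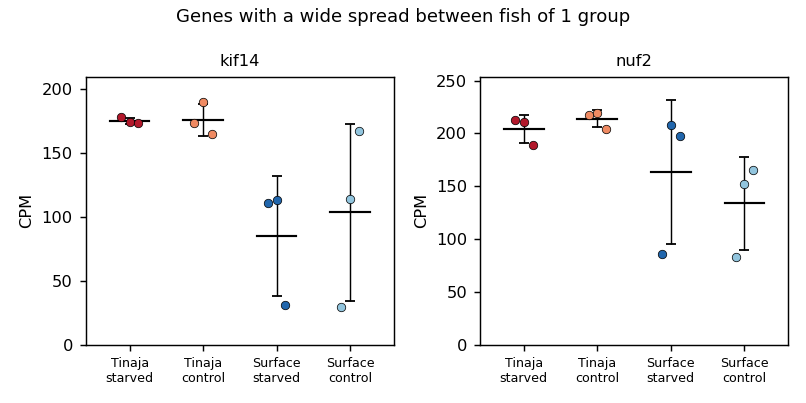
CPM of kif14 and nuf2 in each library, with mean and SD of 3 libraries, on axes that start at 0. Tinaja libraries lie close together, from 165 to 189.5 CPM for kif14, while single surface libraries fall to 29.9 and 30.9 CPM for kif14 and to 83.4 and 85.4 CPM for nuf2.

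Other genes of chromosome segregation outside the symbol rule were examined as a list of 98 symbols, of which 63 genes were tested. In starved against control surface fish 3 rose (4.76%) and none fell, where 3.19% of all genes tested were called, 1.74% higher and 1.45% lower. The 3 were cdc20, the activator of the anaphase-promoting complex, and the cohesin regulators WAPL and PDS5B. The gene cdc20 was also 1 of the 4 proliferation genes called higher in that comparison. The level of cdc20 averaged 1266 ± 93.6 CPM in starved surface fish and 942 ± 37.1 CPM in control surface fish (SD, n = 3 each; log2 fold change 0.43, adjusted p = 0.0294). WAPL, which releases cohesin from chromosomes, averaged 432 ± 5.36 CPM in starved surface fish and 336 ± 38.9 CPM in control surface fish (SD, n = 3 each; log2 fold change 0.36, adjusted p = 0.0295). PDS5B averaged 464 ± 4.99 CPM in starved surface fish and 393 ± 12.6 CPM in control surface fish (SD, n = 3 each; log2 fold change 0.24, adjusted p = 0.0381). These 3 calls also lay near the threshold, and whether they hold in the alternative settings is not given here. None of the 63 was called in starved against control Tinaja cavefish or for the difference between the responses. Of all genes tested, 0.0205% and 0.0684% were called in those comparisons.

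Between populations 11 of the 63 were higher and 13 lower in control Tinaja cavefish (38.1%), and 8 higher and 17 lower in starved Tinaja cavefish (39.7%), again near the share of all genes. KNTC1 (ENSAMXG00000011908), a subunit of the kinetochore complex that recruits dynein and the spindle checkpoint, had 277, 317 and 257 CPM in starved Tinaja cavefish and 2362, 2064 and 2336 CPM in starved surface fish. In control fish it had 305, 275 and 303 CPM in Tinaja cavefish and 1912, 1971 and 1895 CPM in surface fish. The populations were far apart in both states, at log2 fold changes of -2.99 ± 0.0886 (SE, adjusted p = 6.11e-10) in starved and -2.71 ± 0.0876 (SE, adjusted p = 1.79e-09) in control fish. An effect of sequence differences between the populations on the KNTC1 reads was not tested.

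The meiotic kleisin gene rec8b (ENSAMXG00000032839) had 16, 17 and 15 reads in starved Tinaja cavefish and 0 reads in each starved surface library, and 15, 16 and 24 reads in control Tinaja cavefish and 0, 0 and 1 reads in control surface fish. Against a floor of 3 reads over the starved surface group, the level in starved Tinaja cavefish was at least 17.6-fold higher. Between control groups, with 55 reads in Tinaja cavefish and 1 in surface fish, the ratio was 61.3 with an exact 95% counting interval of 10.6 to 2465, which covers counting error only. It was called higher in Tinaja cavefish in both states (adjusted p = 0.000318 in starved and 0.000524 in control fish), the opposite direction to rad21l1. Whether sequence differences between the populations affect the rec8b reads was not tested either.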

How the data were processed

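Right-ovary RNA of 12 libraries, 3 in each of 4 groups, was analysed from 2 deposited tables. One holds raw read counts per gene, made by the authors and not normalized, for 27420 genes. The other holds a scaled signal per gene that the authors deposited for 14627 genes, and it equals CPM after TMM scaling within a relative difference of 4.97e-15. Dividing it by the value of 1 read gave whole reads for 100% of values (tolerance 0.001), and 100% of these equalled the counts. On those reads edgeR called 466 genes in starved against control surface fish, as on the counts. STAR 2.7.10b and RSEM appear in the submitters' processing notes, with no role stated. The genome build, annotation and strand setting of the counting were not given in the sources used here. Per the labels' protocols, rRNA was depleted, a directional kit was used, and the RNA input and number of PCR cycles varied, without values per library.

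The 4 entries that name no gene entered neither library sizes nor tests. They made up 7.279 to 10.09% (unmapped), 9.913 to 16.78% (multimapping), 14.09 to 17.86% (no feature) and 0.2759 to 0.3683% (ambiguous) of these entries and the gene reads together.

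Counts were fitted with edgeR 4.0.16 (R 4.3.3; filter with a minimum count of 10, TMM, robust quasi-likelihood, 1 mean per group over all 12 libraries, 8 residual degrees of freedom), and p-values were adjusted by Benjamini-Hochberg over all 14627 genes, with calls under 0.05. Standard errors were derived from the F statistic and are approximate, as are 95% intervals. The code was tested on simulated data. Alternatives were DESeq2 1.42.0, other scaling factors, no filter, only the groups compared, a replicate block, each library left out, and, chosen after seeing the data, the recovered reads.

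Genes named with their values included up to 8 called members of smallest adjusted p per comparison and direction. A list of key genes and called members of role groups with 5 or fewer calls were also named. Tested entries that share the exact symbol of a gene so named, and kif14, were added after their values were seen. Below the filter were a second KIF26A entry, with 9 reads in all libraries together, and the key gene rad21b, with 25. Some genes without a call were given by means, ranges or log2 fold changes only. Up to 3 called companion genes per comparison and direction could be named. The members and all gene lists were chosen with earlier results of these data known. Promoter and protein sequences were not used here.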

Additional observations from a re-analysis of the deposited data

How the results depend on the processing

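In starved against control surface fish the count of called genes of the set was 4. It was 1 with upper-quartile factors (tpx2) and 0 when only the groups compared were fitted, against 9 with DESeq2 (6 higher and 3 lower), and 0 to 7 when single libraries were left out. With RLE factors it was 4, and without a filter 3. The fit of the recovered reads also gave 4, but those reads equal the counts, so it is no separate check. For the difference between the responses the count was 0, with 3 in DESeq2 and 0 to 1 when single libraries were left out. In Tinaja cavefish it was 0 in every alternative run. Between populations the counts stayed within 1.5 times of 22 in control fish (16 to 23) and of 25 in starved fish (18 to 27). Same-numbered libraries did not deviate together: correlations of their deviations ran from -0.311 to 0.083, so the numbers are not taken as pairs. With the replicate number as a block the counts were 0 and 0 for starvation in surface and Tinaja fish, 0 for their difference, and 23 and 24 between populations. None of the calls of the set (4, 22 and 25 by comparison) changed sign in the alternatives run. Those fits reuse the same libraries and only called genes were checked, so a change of sign was unlikely from the start. Other scalings moved the median of all genes by at most 0.04. The median standard error of 0.103 in surface fish limits what can be called, and genes with few reads (KIF26B, CENPVL3, rec8b) have imprecise fold changes. The causes of lost calls were not tested. Shares of all genes called are not given for most of these alternatives, so the counts do not set these genes apart.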
